A study of Homo sapiens with 4 samples.

Results

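The APOBEC3 genes encode a family of cytidine deaminases, and their mRNA levels were examined in MV4-11 cells with and without knockdown of CEBPG. The family was taken as 6 named genes, APOBEC3A, APOBEC3B, APOBEC3C, APOBEC3D, APOBEC3F and APOBEC3G, chosen by symbol. Of these, 5 have a row in the expression table, which holds 16490 genes in all, and APOBEC3A is not listed. MV4-11 is a human acute myeloid leukemia (AML) cell line with monocytic features, and CEBPG is a bZIP transcription factor of the CCAAT enhancer binding protein family. RNA-seq was performed on 2 libraries of MV4-11 cells carrying the control hairpin sh-NC and 2 libraries of MV4-11 cells carrying sh-CEBPG#3. The CEBPG hairpin was carried by the lentiviral vector pLKO.1-puro and stable cells were selected with puromycin, while the vector of sh-NC is not given in the sources used here. The knockdown group rests on 1 hairpin, no time after infection is given with the samples, and nothing says that replicate libraries were infected separately, so p-values measure the spread between these libraries, which may be technical.

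APOBEC3 enzymes turn cytosine into uracil in DNA strands that are exposed as a lone strand, such as the minus strand of a retrovirus during reverse transcription. APOBEC3G and APOBEC3F are best known for their action against HIV lacking Vif, and APOBEC3A and APOBEC3B for the C-to-T mutations left in tumor genomes. In myeloid cells several family members are known to respond to interferon, APOBEC3A most of all, whereas APOBEC3B is linked to the cell cycle and to NF-kB signaling. Uracil left by these enzymes is removed by uracil-DNA glycosylases and passed to base excision repair.

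The 6 genes lie side by side on chromosome 22 and are all read from the plus strand. They occupy 130 kb, 38957609 to 39087743 on GRCh38.p14 (RefSeq). In order, APOBEC3B spans 38982347 to 38992779, APOBEC3C 39014257 to 39020352, APOBEC3D 39021127 to 39033277, APOBEC3F 39040864 to 39055972, and APOBEC3G 39077005 to 39087743. APOBEC3A (38957609 to 38963184) comes first, and its curated RefSeq transcripts have no row either. APOBEC3F is represented by 2 RefSeq rows and each other listed member by 1 row. None of the 6 genes has an entry among the promoter sequences used here. The members arose by duplication and remain similar in sequence, so reads can be split between them, and levels of APOBEC3B in particular are uncertain where its sequence matches APOBEC3A. An antisense RNA, APOBEC3B-AS1, shares 1221 bases with the 3′ part of APOBEC3B on the other strand, and the library kit does not mark strand. Its row is listed at 0 in 1 library of each group and at 0.0412 and 0.00683 FPKM in the others.

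The knockdown was checked first. CEBPG stood at 30.4 and 33.6 FPKM (fragments per kilobase of exon, scaled to library size) with sh-NC and at 19.2 and 17.1 FPKM with sh-CEBPG#3, or 56.8% of the mean control level (log2 fold change -0.78, SE 0.09, adjusted p = 8.88e-05 in limma). Fold changes and tests here are on the log2(FPKM + 1) scale, and a gene is called at a Benjamini-Hochberg adjusted p under 0.05 over the 12142 genes that reached a mean of 0.5 FPKM. On this rule 42.2% of all genes tested were called, 18.5% higher and 23.8% lower in sh-CEBPG#3 cells. With a log2 change beyond 1 as well, 3.37% were called, 2.33% higher and 1.04% lower, shares that depend on the pseudocount (409 genes in all here, 779 with a pseudocount of 0.1 and 819 with 0.01). The median log2 fold change of all genes tested was -0.038. Depth cannot be read from FPKM values, so no detection limit is given.

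APOBEC3B fell, APOBEC3G rose and APOBEC3C, the most abundant member, did not pass the test. APOBEC3F and APOBEC3D lay below the 0.5 FPKM filter and were not tested. In all 5 listed members the libraries of the groups did not overlap, which was also the case for 71.7% of all genes tested (31.5% higher and 40.2% lower). The plot of each member by library shows these levels side by side.

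APOBEC3B encodes a nuclear enzyme with a pair of deaminase domains. Control cells had 4.78 and 5.79 FPKM and knockdown cells 1.89 and 1.89 FPKM. Both knockdown libraries were below both control libraries, and they differed from each other far less than the control libraries did. Its mean went from 5.28 ± 0.714 to 1.89 ± 0.000232 FPKM (SD, n = 2 each), which is 35.9% of the control. On the log2 scale the change was -1.11 (SE 0.11, 95% interval -1.36 to -0.86, adjusted p = 4.56e-05 in limma, Benjamini-Hochberg). APOBEC3B ranked 83 from the lowest log2 fold change of the 12142 genes, and it was among the 1.04% of genes called lower with a log2 change beyond 1. It stayed called with each library left out, although without sh-NC replicate 2 its log2 fold change of -1.00 no longer lay beyond 1.

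APOBEC3G encodes a cytoplasmic enzyme, also with a pair of deaminase domains, that is packed into retroviral particles and edits the new viral DNA strand. Its values were 1.47 and 1.74 FPKM in sh-NC cells against 3.31 and 3.23 FPKM in sh-CEBPG#3 cells, with each knockdown library above each control library. Its mean rose 2.04-fold, from 1.61 ± 0.194 FPKM (SD, n = 2) to 3.27 ± 0.0586 FPKM (SD, n = 2). On the log2(FPKM + 1) scale the change was 0.72 (SE 0.11, 95% interval 0.46 to 0.97, adjusted p = 0.000728 in limma, Benjamini-Hochberg), which ranked 568 from the highest. When each RefSeq row was tested by itself, APOBEC3G kept the value of 0.72 but missed the threshold (adjusted p = 0.0646 in limma). Of 18624 rows tested in that way, 8.24% were called, 4.16% higher and 4.08% lower, and APOBEC3B was still called (-1.11, adjusted p = 0.0316 in limma).

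APOBEC3C encodes a smaller enzyme with 1 deaminase domain and weaker antiviral activity. Control cells had 20.5 and 21.8 FPKM, knockdown cells 19.3 and 18.9 FPKM. The groups were separate but close, with means of 21.1 ± 0.889 and 19.1 ± 0.296 FPKM (SD, n = 2 each). The log2 difference of -0.14 (95% interval -0.32 to 0.03, adjusted p = 0.17 in limma) did not pass the test. Its decrease did pass when the libraries were scaled to equal totals (-0.17, adjusted p = 0.0248 in limma).

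APOBEC3F, a further antiviral member with a pair of deaminase domains, had 0.302 and 0.219 FPKM in sh-NC cells and 0.558 and 0.688 FPKM in sh-CEBPG#3 cells. The means of 0.26 ± 0.0592 and 0.623 ± 0.0916 FPKM (SD, n = 2 each) differ 2.39-fold. Its 2 rows did not move alike. The row NM_001006666 had 0.241 and 0.0209 FPKM in sh-NC cells and 0.352 and 0.566 FPKM in sh-CEBPG#3 cells. For NM_145298 the groups overlapped, with 0.0615 and 0.198 FPKM against 0.206 and 0.122 FPKM. APOBEC3D, the least abundant listed member, had 0.147 and 0.104 FPKM in sh-NC cells and 0.0598 and 0.0664 FPKM in sh-CEBPG#3 cells. Neither group overlapped the other in APOBEC3D. With no filter on low values the log2(FPKM + 1) difference was 0.36 for APOBEC3F (adjusted p = 0.0277 in limma) and -0.08 for APOBEC3D (adjusted p = 0.217 in limma). In that fit 4093 of 16490 genes were called, 1861 higher and 2232 lower.

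Because FPKM values are per length, the members can be compared with each other, but only roughly. The rows hold 1 of 5 curated RefSeq transcripts of APOBEC3G and 1 of 2 for APOBEC3B and for APOBEC3D. For APOBEC3C and APOBEC3F they hold all of them. Order, ratios and shares between members can depend on this and on how reads were split between them. In sh-NC cells the order was APOBEC3C, APOBEC3B, APOBEC3G, APOBEC3F and APOBEC3D, and no neighbours in that order overlapped. In sh-CEBPG#3 cells APOBEC3G stood above APOBEC3B, and the rest of the order was as in sh-NC cells, again without overlap. Most genes tested were expressed more than these: 69.9% of them had a larger mean FPKM than APOBEC3B and 78.3% a larger one than APOBEC3G, against 23.2% for APOBEC3C.

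The ratio of APOBEC3B to APOBEC3G within a library does not depend on how libraries are scaled. It was 3.25 and 3.32 in sh-NC cells and 0.572 and 0.586 in sh-CEBPG#3 cells, a difference of -2.51 on the log2 scale. The ratio of APOBEC3B to APOBEC3C was 0.233 and 0.266 against 0.0983 and 0.1, and that of APOBEC3C to APOBEC3G was 14 and 12.5 against 5.82 and 5.84. In each of the 3 pairs the groups were apart by more than their spread. The exact two-sided permutation p was 0.333 for each pair (0.333 after Benjamini-Hochberg adjustment over the 3 pairs), which is the smallest that 2 against 2 libraries allow.

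Summed over the 5 listed members, the family had 27.2 and 29.6 FPKM in sh-NC cells and 25.1 and 24.7 FPKM in sh-CEBPG#3 cells. APOBEC3C made up 75.4% and 73.5% of this sum in sh-NC cells and 76.8% and 76.2% in sh-CEBPG#3 cells. The share of APOBEC3B went from 17.5% and 19.5% to 7.55% and 7.66%. That of APOBEC3G went from 5.4% and 5.88% to 13.2% and 13.1%. APOBEC3F made up at most 2.78% and APOBEC3D at most 0.54% in any library. Fewer cells that express a gene and less of its RNA per cell cannot be told apart in bulk RNA.

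Of 4 other APOBEC genes, APOBEC3H and APOBEC2 have rows, and APOBEC1 and APOBEC4 are not listed. APOBEC3H, the seventh gene of the cluster and an antiviral enzyme with 1 deaminase domain, had 0.354 and 0.298 FPKM in sh-NC cells and 0.904 and 0.668 FPKM in sh-CEBPG#3 cells. Its mean was 0.326 FPKM in sh-NC cells and 0.786 FPKM in sh-CEBPG#3 cells, so it reached the 0.5 FPKM filter only through the group where it was higher, and its test rests on that selection. Its log2 fold change was 0.43 (SE 0.15, adjusted p = 0.0377 in limma). The call was lost without sh-NC replicate 2 (0.40, adjusted p = 0.0889 in limma), and without sh-CEBPG#3 replicate 1 its mean fell below the filter. In each library the whole value stood on 1 of its 2 rows and the other row was at 0. NM_001166002 carried it in sh-NC replicate 1 and sh-CEBPG#3 replicate 2, and NM_001166003 in the remaining libraries. APOBEC2, a muscle deaminase, had 0.844 and 0.658 FPKM in sh-NC cells and 0.299 and 0.491 FPKM in sh-CEBPG#3 cells, with a log2 fold change of -0.33 that did not pass (adjusted p = 0.1 in limma). It reached the filter only through the sh-NC libraries.

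APOBEC3H is the gene of the cluster whose promoter is in the RefSeq table (GRCh38.p14, plus strand, chr22:39096994-39097293, with 250 bases before and 50 from the start on), and it is shown for that reason, with a CCAAT match (ATTGG on this strand) in capitals.
APOBEC3H promoter: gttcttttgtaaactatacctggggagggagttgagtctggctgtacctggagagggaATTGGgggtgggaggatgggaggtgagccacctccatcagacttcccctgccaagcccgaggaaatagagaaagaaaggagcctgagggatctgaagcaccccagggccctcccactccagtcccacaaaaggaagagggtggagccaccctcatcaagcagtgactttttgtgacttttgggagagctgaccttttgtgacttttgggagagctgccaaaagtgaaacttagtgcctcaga

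A search on both strands found 1 CCAAT in this window, a motif that 34.6% of the 35116 promoters in the table hold. The core of the interferon-stimulated response element (held by 3.57% of promoters), the gamma-activated site (TTCNNNGAA, 7.66%) and a C/EBP form (TTGCNNAA, 10.5%) were not found among its letters.

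The genes around the cluster were compared with its members. Of 9 neighbours, 8 were tested, 2 were higher and 1 was lower, and their median log2 fold change was 0.02 beside -0.04 for all genes, of which 18.5% were higher and 23.8% lower. CBX6, the Polycomb gene upstream of APOBEC3A, rose from 15.1 ± 0.824 to 20.5 ± 0.335 FPKM (SD, n = 2 each; log2 fold change 0.42, adjusted p = 0.0022 in limma). CBX7, the Polycomb gene downstream of APOBEC3H, was at 0.696 and 0.922 FPKM in sh-NC cells and 1.11 and 0.71 FPKM in sh-CEBPG#3 cells, with overlap (log2 fold change 0.07, adjusted p = 0.73 in limma). Farther out, SYNGR1, a synaptic vesicle gene, rose by 0.46 and TAB1, which activates the kinase TAK1, fell by 0.64 on the log2 scale. RPL3, a ribosomal protein and the most abundant neighbour, was at -0.21 (adjusted p = 0.0504 in limma). PDGFB is listed at 0 in both sh-NC libraries and at 0.0127 and 0.0218 FPKM in the sh-CEBPG#3 libraries.

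Enzymes that deal with genomic uracil and with the abasic sites it leaves were all listed and tested, 14 genes in all. Of these, 1 was higher and 5 were lower, and 8 did not pass, beside 18.5% higher and 23.8% lower among all genes. Their median log2 fold change was -0.04, the same as for all genes. UNG, the main uracil-DNA glycosylase, fell from 33.3 ± 2.59 to 16.1 ± 0.262 FPKM (SD, n = 2 each), with a log2 fold change of -1.00 (SE 0.08, adjusted p = 1.13e-05 in limma). DUT, the dUTPase that keeps uracil out of the nucleotide pool, fell from 63.4 ± 0.461 to 41.3 ± 0.135 FPKM (SD, n = 2 each; log2 fold change -0.61, adjusted p = 0.000102 in limma). XRCC1, HMCES and MAD2L2 were the other genes called lower, by 0.28 to 0.41 on the log2 scale, and POLB, the gap-filling polymerase, was called higher at 0.25. These 4 were named after their values were seen, and all 4 calls depended on single libraries. The POLB call was lost with any 1 library left out, that of XRCC1 without sh-NC replicate 2, that of HMCES without sh-NC replicate 2 or sh-CEBPG#3 replicate 1, and that of MAD2L2 without either sh-CEBPG#3 replicate. APEX1, the abasic-site endonuclease and the most abundant gene of the list, was at -0.03 (adjusted p = 0.782 in limma). REV3L, with the largest value, was at 0.27 and did not pass (adjusted p = 0.0954 in limma). With each library left out in turn, UNG and DUT were called every time, while 3 to 7 genes of the list were called, 3 without sh-NC replicate 2 and 3 without sh-CEBPG#3 replicate 1.

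The rows of UNG and DUT were looked at after their values had been seen. Rows of a gene can share reads, and how these were split is not known. The APOBEC3H rows, which swapped between libraries, show that such a split can be unstable, so differences between rows are uncertain. UNG has separate transcripts for a nuclear and a mitochondrial enzyme. Its nuclear form NM_080911 had 25.5 and 28.8 FPKM in sh-NC cells and 9.77 and 9.19 FPKM in sh-CEBPG#3 cells. The mitochondrial form NM_003362 had 6.03 and 6.36 FPKM in sh-NC cells and 6.56 and 6.77 FPKM in sh-CEBPG#3 cells. In the test of single rows the nuclear form passed at -1.42 (adjusted p = 0.013 in limma) and the mitochondrial form did not at 0.09 (95% interval -0.18 to 0.36, adjusted p = 0.597 in limma). Their ratio within a library was 4.22 and 4.53 in sh-NC cells and 1.49 and 1.36 in sh-CEBPG#3 cells (exact two-sided permutation p = 0.333, the smallest possible). For DUT, the nuclear form NM_001948 passed at -0.71 (adjusted p = 0.0165 in limma), while the mitochondrial form NM_001025248 was at -0.32 (adjusted p = 0.166 in limma). A further DUT row, NM_001025249, had 2.06 and 1.02 FPKM in sh-NC cells and 1.72 and 2.17 FPKM in sh-CEBPG#3 cells, with overlap (0.24, adjusted p = 0.61 in limma). The ratio of the nuclear to the mitochondrial form was 4.56 and 4.06 in sh-NC cells and 3.02 and 3.62 in sh-CEBPG#3 cells (exact two-sided permutation p = 0.333), without overlap.

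The RefSeq table gives UNG a pair of starts, 575 bases apart on the plus strand of chromosome 12 (GRCh38.p14). As background, the upstream start is known as that of the nuclear form and the downstream start as that of the mitochondrial form. Both windows are printed because the rows differ, with CCAAT in capitals.
UNG upstream promoter, chr12:109097347-109097646: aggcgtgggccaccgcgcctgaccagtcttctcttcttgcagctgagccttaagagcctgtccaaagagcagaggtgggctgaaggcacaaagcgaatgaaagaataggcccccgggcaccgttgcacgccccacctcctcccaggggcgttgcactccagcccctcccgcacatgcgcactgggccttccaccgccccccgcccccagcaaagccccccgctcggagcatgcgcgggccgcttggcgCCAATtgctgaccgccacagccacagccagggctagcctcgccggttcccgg
UNG downstream promoter, chr12:109097922-109098221: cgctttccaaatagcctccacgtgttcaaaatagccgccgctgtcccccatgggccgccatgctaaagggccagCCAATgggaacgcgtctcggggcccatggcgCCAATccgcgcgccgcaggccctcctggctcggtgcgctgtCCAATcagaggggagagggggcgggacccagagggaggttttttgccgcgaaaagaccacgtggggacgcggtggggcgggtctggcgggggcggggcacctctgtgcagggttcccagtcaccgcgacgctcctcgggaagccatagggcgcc

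The upstream window holds 1 CCAAT and the downstream window 3, a motif that 34.6% of the promoters hold. Binding of CEBPG to these windows was not tested. The same exact spellings of the interferon-stimulated response element core, the gamma-activated site and the C/EBP form were found in neither.

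Transcription factors known to act on APOBEC3 genes were examined next. Of 10 such genes, 6 were higher, 1 was lower and 3 did not pass, with a median log2 fold change of 0.36. Among all genes 18.5% were higher and 23.8% lower, with a median of -0.04. STAT2 and IRF9 belong to the complex that carries the type I interferon signal to its target genes. IRF9 had 3.99 and 4.13 FPKM in sh-NC cells and 31.4 and 29.9 FPKM in sh-CEBPG#3 cells (log2 fold change 2.64, adjusted p = 1.65e-08 in limma). STAT2 went from 12.1 and 11.9 FPKM to 36.8 and 35.3 FPKM (log2 fold change 1.51, adjusted p = 4.61e-07 in limma). NFKB2 (1.77) and RELB (1.37), the noncanonical NF-kB subunits, were also called higher. The other NF-kB subunits of the list moved little. NFKB1 did not pass (0.03, adjusted p = 0.806 in limma). RELA was called higher at 0.21 (adjusted p = 0.0492 in limma), a call kept in 3 of 7 other settings with all libraries. These NF-kB genes are named here after their values were seen. MYBL2, a cell cycle factor of the complex that activates late cell cycle genes, fell from 56 ± 2.85 to 25.4 ± 0.26 FPKM (SD, n = 2 each; log2 fold change -1.11, adjusted p = 3.27e-06 in limma). Without each library in turn, 6 or 7 of these genes were called.

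Other restriction factors against retroviruses were compared with the APOBEC3 members. Of 13 genes, all tested, 8 were higher and 5 did not pass in limma, with a median log2 fold change of 0.93, beside 18.5% higher and a median of -0.04 among all genes. The count called lower was 0, also at an unadjusted p under 0.05. MX2, which blocks nuclear import of HIV, rose from 0.43 ± 0.149 to 9.04 ± 0.318 FPKM (SD, n = 2 each; log2 fold change 2.82). It passed the 0.5 FPKM filter only through the sh-CEBPG#3 libraries. BST2, the tetherin that holds budding virus at the cell surface, was the most abundant, with 47.5 and 53.3 FPKM in sh-NC cells and 324 and 306 FPKM in sh-CEBPG#3 cells. SAMHD1, which depletes deoxynucleotides in myeloid cells, rose 2.02-fold, from 42.4 ± 2.5 to 85.9 ± 3.7 FPKM (SD, n = 2 each). TRIM5, a sensor of the retroviral capsid, was at -0.05 (adjusted p = 0.685 in limma).

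A list of host proteins tied to APOBEC3 enzymes, among them ubiquitin ligase subunits that HIV Vif recruits against them, was compared as well. These genes are called APOBEC3 partners here. Of 8 genes, 1 was higher, 1 was lower and 6 did not pass, with a median log2 fold change of -0.05, beside 18.5% higher, 23.8% lower and a median of -0.04 among all genes. CBFB, the core binding factor subunit that HIV Vif borrows to degrade APOBEC3G, fell from 26.1 ± 0.835 to 19.5 ± 1.15 FPKM (SD, n = 2 each; log2 fold change -0.40, adjusted p = 0.00276 in limma). ELOB, an elongin subunit of the ubiquitin ligase that Vif recruits, was called at 0.21 (adjusted p = 0.0361 in limma). This call was lost without sh-NC replicate 1 and without either sh-CEBPG#3 replicate, which left 1 gene called.

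The genes most like each tested member were found by the Euclidean distance of log2(FPKM + 1) values, centred on their mean over the 4 libraries. For APOBEC3B these were SOX18 (distance 0.051), RXRA (0.061) and DDX23 (0.073), with log2 fold changes of -1.16, -1.07 and -1.13. For APOBEC3G they were PDLIM7 (0.015), ICAM1 (0.032) and ANXA2 (0.037), with log2 fold changes of 0.71, 0.69 and 0.70. TMEM203 and FYN (0.011 each) and RPAP3 (0.013) were nearest to APOBEC3C. The distances rest on 4 libraries in 2 groups. Because the genes were picked on these same values, their fold changes lie near the member's by construction.

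Some marker genes of monocytes and other cell types differed between the groups, beside 18.5% higher and 23.8% lower among all genes tested. Of 9 monocyte markers, 7 were tested, 4 were higher and 1 was lower. LYZ (2.37), CD68 (1.14), CSF1R (0.80) and FCGR1A (0.51) were the higher ones, as log2 fold changes. The summed level of all 9 was 755 to 827 FPKM in sh-NC cells and 3231 to 3384 FPKM in sh-CEBPG#3 cells, most of it LYZ. S100A9, a calcium-binding protein of myeloid cells, fell from 71.8 ± 7.94 to 43.8 ± 1.06 FPKM (SD, n = 2 each; log2 fold change -0.70, adjusted p = 0.000159 in limma), while ITGAM (0.09) and S100A8 (0.14) did not pass. CD14, a defining monocyte receptor, had 0.187 and 0 FPKM in sh-NC cells and 1.09 and 0.697 FPKM in sh-CEBPG#3 cells, and VCAN was at most at 0.0676 FPKM, and neither was tested. The 7 AML blast markers all had values in each library, and 4 were higher and 2 lower. MEIS1 (-0.87, adjusted p = 8.31e-05 in limma) and HOXA9 (-0.36, adjusted p = 0.0167 in limma) were lower. SPI1, CD33, CD4 and MPO were higher, by 0.33 to 0.62 on the log2 scale, and FLT3 did not pass (-0.14). Of the T cell markers CD247 alone is listed, at up to 0.18 FPKM, and none of the 4 erythroid markers is listed. B cell markers summed to 1.03 to 1.15 FPKM in sh-NC cells and 1.51 to 1.52 FPKM in sh-CEBPG#3 cells, and NK cell markers, mostly NKG7 and NCAM1, to 56.4 to 57.4 and 66.1 to 67.1 FPKM. NKG7 was called higher (0.36, adjusted p = 0.00265 in limma) and NCAM1 lower (-0.28, adjusted p = 0.026 in limma). Of the 4 epithelial markers, KRT18 and KRT8 are listed, and their sum was 12.1 to 12.9 and 14.8 to 16 FPKM. KRT8 was called higher (1.12, adjusted p = 1.55e-05 in limma), and KRT18 did not pass (-0.14). The part of these markers in the APOBEC3 differences was not tested.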

How the data were processed

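RNA-seq was carried out on 4 libraries of MV4-11 cells, 2 carrying sh-NC and 2 carrying sh-CEBPG#3, grouped by their titles. After read filtering and mapping with HISAT, the authors deposited 1 FPKM value per RefSeq transcript and library; the submitters' processing notes name HISAT2 2.0.5 and hg38, while the program behind the FPKM values and the annotation version are not given in the sources used here. Replicates were not pooled. Of 28780 rows, 28581 have values, and these were summed by symbol to 16490 genes (164 rows without a symbol stand alone). FPKM totals were 364353 to 389766 per library. Among 565 low genes (under 0.06 FPKM), at most 0.708% shared a ratio between the sh-NC libraries to 3 decimals, so whole reads could not be recovered and no count test was run.

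Log2(FPKM + 1) values were kept for 12142 genes that reached a mean of 0.5 FPKM and were compared with limma 3.58.1 (mean-variance trend, no block) in R 4.3.3, with Benjamini-Hochberg adjustment over all of them. The fit was also run on simulated data with independent libraries, in which changed genes of low level were not included. No result here rests on that run. The members and gene lists were chosen with earlier results of these data known. Genes named from each list are those with the largest increase, decrease and mean, with UNG, APEX1, DUT, CBFB, STAT2, IRF9, SAMHD1, CBX6 and CBX7. Some list genes are not reported here. Sequences and coordinates come from RefSeq on GRCh38.p14 and strands from GENCODE. Alternatives were other pseudocounts, filters and scalings, a replicate block, each library left out and each row tested by itself.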

Additional observations from a re-analysis of the deposited data

How the results depend on the processing

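APOBEC3B kept its direction and its call in all 12 alternatives. Its log2 fold changes ran from -1.47 to -1.09 over the other settings and from -1.23 to -1.00 with each library left out. Among settings with all 4 libraries its largest adjusted p was 0.0316 in limma, for the row tested by itself. CEBPG also kept its call in all 12, from -0.87 to -0.70. Leaving out 1 library leaves a group of 1, and the replicate block leaves little spread to measure. Such fits lean on the variance of all genes, so a call there is not stronger evidence. APOBEC3G kept its call in 11 of 12 (0.64 to 0.79 with each library left out), and tested as a row by itself it was 0.72 with an adjusted p = 0.0646 in limma. APOBEC3C passed with equal totals (-0.17, adjusted p = 0.0248) and in none of its other alternatives (-0.18 to -0.10 with each library left out). With pseudocounts of 0.1 and 0.01, APOBEC3F moved from 0.36 to 1.01 and 1.24 and APOBEC3D from -0.08 to -0.46 and -0.87, since a smaller pseudocount shrinks low values less; with each library left out they ranged from 0.31 to 0.42 and from -0.11 to -0.05. The log2 ratio of APOBEC3B to APOBEC3G, -2.51, was -2.41 with a pseudocount of 0.1. The number of genes called with a log2 change beyond 1 was 779 at a pseudocount of 0.1 and 819 at 0.01, against 409.

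The other APOBEC genes called went from 1 to 0 with a pseudocount of 0.01 (APOBEC3H at 1.23, adjusted p = 0.0534 in limma, with 1 gene at an unadjusted p under 0.05) and with a mean of at least 1 FPKM, where none was tested, and to 0 or 1 with each library left out; without sh-NC replicate 2 it was 0 in limma, with 2 genes at an unadjusted p under 0.05, and without sh-CEBPG#3 replicate 1 it was 0, with 0 at an unadjusted p under 0.05. Uracil genes called ranged from 3 to 7 and APOBEC3 partners from 1 to 2 with each library left out, against 6 and 2. Partners called fell to 1 with no filter and to 1 with the replicate block. The transcription factors, restriction factors, neighbours and monocyte markers stayed within 1.5 times their count. Rows of UNG and DUT were tested by themselves, a choice made after the values were seen. UNG was at 0.09 in NM_003362 (adjusted p = 0.597 in limma) and DUT at 0.24 in NM_001025249 (adjusted p = 0.61 in limma). The sign changed in these rows, but neither passed. With the replicate block, 4761 genes were called against 5128. Same-numbered libraries deviated with a correlation of 0.0606, so the numbers are not taken to pair them. Unless stated, the cause was not tested.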
